A study of Mus musculus with 8 samples.

Results

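Rgs6, Rgs7 and Rgs20 are 3 of the 14166 genes counted in nuclei of the dorsal telencephalon, the embryonic brain region that forms the cerebral cortex, and were chosen by gene symbol. The nuclei came from C57BL/6J embryos at E15.5, from 4 samples labelled wildtype and 4 labelled Pantr2 knockout. Pantr2 is a long noncoding RNA locus, and the labels write the knockout as Pantr2-/-; they give no other allele or treatment. Tissue was flash frozen, and nuclear RNA was captured with the 10x Genomics 3′ chemistry, version 2, which tags each captured molecule with a unique molecular identifier (UMI). The labels do not say whether the replicates of a group are separate embryos or pools, so p-values measure only the spread between these samples, which may be technical. The comparisons ask in which groups of nuclei each gene was present, and whether its level differed between genotypes.

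Regulators of G protein signalling (RGS) are proteins that speed the hydrolysis of GTP by the α subunit of a heterotrimeric G protein, and so shorten the signal of a G protein-coupled receptor. Rgs6 and Rgs7 belong to the R7 subfamily, whose members act on Gαi and Gαo, bind the atypical β subunit Gβ5 (Gnb5) and are held at the membrane by the R7-binding protein Rgs7bp or, for Rgs7, by the orphan receptor Gpr158. Rgs20, also called RGSZ1, belongs to the RZ subfamily, which acts on Gαz and Gαi. In neurons these proteins limit the inhibitory action of receptors such as the GABA-B and group II metabotropic glutamate receptors on potassium channels, calcium channels and adenylyl cyclase.

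The 3 genes are long, and levels between genes are therefore compared only per length of the gene span; whether the authors' counting included introns is not stated, so such values depend on an unknown share of the span. On GRCm38, by the GENCODE M21 annotation, Rgs6 (ENSMUSG00000021219) covers chromosome 12 from 82588292 to 83162056 on the plus strand, which is 573.765 kb. Rgs7 (ENSMUSG00000026527) covers chromosome 1 from 175059087 to 175492500 on the minus strand, 433.414 kb. Rgs20 (ENSMUSG00000002459) covers chromosome 1 from 4909576 to 5070285 on the minus strand, 160.71 kb. No other counted gene overlaps Rgs6 or Rgs7. Rgs20 overlaps 1 counted gene, Atp6v1h, a subunit of the vacuolar proton pump that lies on the opposite strand, and their transcripts share up to 129 bases at 100% identity in antisense orientation. Whether the authors' counting used the strand is not stated, so reads from the shared stretch cannot be assigned to Rgs20 or Atp6v1h with certainty, and the level of Rgs20 is uncertain to that extent.

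The files hold 33781 wildtype and 33538 knockout nuclei, 7280 to 10921 per sample, with 20446698 to 34083796 UMIs per sample and a median of 2570 to 2905 per nucleus. Of 66806 distinct barcodes, 510 occurred in more than 1 library. The authors' annotation places each nucleus in 1 of 7 numbered clusters. By their markers, cluster 1 was upper-layer excitatory neuron-like (Cux1, Cux2, Pou3f1), clusters 2 (Bcl11b, Fezf2, Ldb2) and 3 (Sox5, Tle4, Foxp2, Tbr1, Hs3st4) were deep-layer excitatory neuron-like, cluster 4 was apical progenitor-like (Pax6, Hes5, Vim) and cluster 5 intermediate progenitor-like (Eomes, Neurog2). In sum, the 6 upper-layer markers were higher in cluster 5 than in cluster 1 in wildtype, as given with Rgs7. In clusters 6 and 7 no list had more than 1 marker that met the naming rule (given with the processing), so both clusters stay unnamed. Levels are CPM, the UMI count of a gene relative to all UMIs after TMM scaling, in the summed nuclei of a sample and cluster. The clusters were made from these same genes, so levels across clusters are described with no test. Genotypes were compared with edgeR's quasi-likelihood test on the sums, with p-values adjusted by Benjamini-Hochberg over all genes tested and a threshold of 0.05.

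Rgs6 was a gene of the deep-layer clusters. Wildtype nuclei of cluster 3 had 1774 ± 48.9 CPM (SD, n = 4), those of cluster 2 had 947.8 ± 91.5, those of cluster 7 had 599.7 ± 63.8 and those of cluster 6 had 201.7 ± 50.3. It was lower in cluster 4 (110.0 ± 35.1 CPM), cluster 1 (65.4 ± 9.69 CPM) and cluster 5 (53.7 ± 23.6 CPM), so that the highest and the lowest cluster differed 33.0-fold. Clusters 3, 2, 7 and 6 kept this order in all 8 samples. Cluster 4 was above cluster 1 in 6 of 8 samples and cluster 1 above cluster 5 in 5 of 8, so these neighbours did not differ beyond their spread. Cluster 3 held 56.6 ± 4.71% of all Rgs6 UMIs of a wildtype sample, and cluster 2 another 26.5 ± 4.48%.

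Rgs7 had a flatter profile, 9.84-fold from top to bottom, and its top cluster was not that of Rgs6. In wildtype, cluster 6 had 264.3 ± 32.1 CPM, cluster 3 had 220.5 ± 12.1, cluster 2 had 213.2 ± 8.53 and cluster 7 had 165.8 ± 28.2. Cluster 1 had 82.1 ± 3.17 CPM, cluster 4 41.8 ± 3.62 and cluster 5 26.9 ± 5.61. Clusters 3 and 2 overlapped in wildtype. In the knockout samples cluster 2 fell behind cluster 7 in the order: it was above cluster 7 in 4 of 4 wildtype samples and in 0 of 4 knockout samples.

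Rgs20 had the opposite distribution and was concentrated in the apical progenitor-like cluster. Wildtype samples had 695.9 ± 46.6 CPM in cluster 4 and 89.7 ± 11.2 in cluster 5, a 7.76-fold step that held in all 8 samples. Clusters 1, 2, 3, 6 and 7 lay between 38.4 ± 6.62 CPM in cluster 6 and 11.3 ± 4.10 in cluster 1, which is 61.8-fold below cluster 4. The neighbours 6 and 3, 2 and 7, and 7 and 1 overlapped in this order. Cluster 4 gave 78.8 ± 4.03% of the Rgs20 UMIs of a wildtype sample and 84.1 ± 2.17% of those of a knockout sample. Atp6v1h, by contrast, differed little between clusters, from 228.9 ± 22.6 CPM in cluster 4 to 273.9 ± 16.3 in cluster 5. Per 100 kb of gene, Rgs20 in cluster 4 stood at 433.0 ± 29.0 CPM, Rgs6 in cluster 3 at 309.2 ± 8.52 CPM and Rgs7 in cluster 6 at 61.0 ± 7.40 CPM in wildtype.

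**Figure D1:**
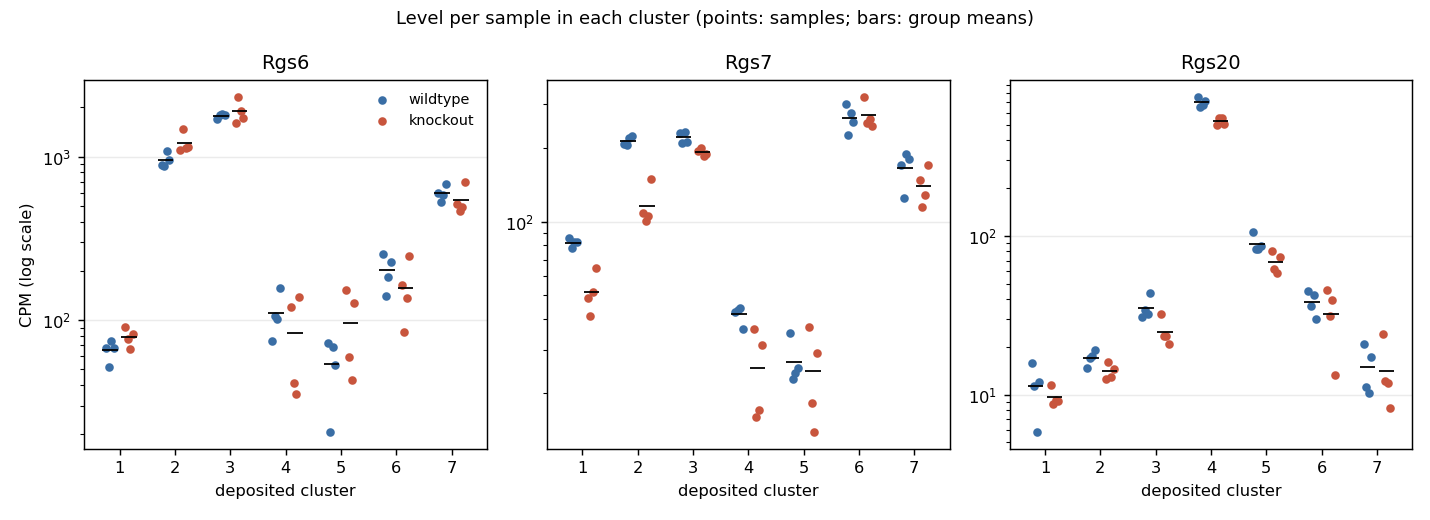
Level of Rgs6, Rgs7 and Rgs20 in each deposited cluster, in CPM on a log axis, with 1 point per sample (wildtype blue, knockout red) and black bars at the group means. Rgs6 peaks in cluster 3 at 1774 CPM in wildtype and Rgs20 in cluster 4 at 695.9 CPM, while Rgs7 is spread over clusters 6, 3, 2 and 7, and its knockout points in cluster 2 lie below the wildtype ones.

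The share of nuclei with at least 1 UMI followed the levels. For these shares each nucleus was thinned to 1400 UMIs, so that depth did not differ; no nucleus was shallower. Rgs6 was seen in 77.6 ± 0.866% of wildtype nuclei in cluster 3 (88.6% without thinning) and in 51.4 ± 5.05% in cluster 2, against 3.75 ± 1.16% in cluster 5. Rgs7 was seen in 23.8 ± 1.14% of nuclei in cluster 6 (40.5% without thinning), in 23.8 ± 0.812% in cluster 3 (41.9%) and in 2.75 ± 0.543% in cluster 5. Rgs20 was seen in 57.4 ± 1.65% of wildtype nuclei in cluster 4 (78.1% without thinning), in 10.3 ± 1.12% in cluster 5 and in 1.47 to 4.21% in the other clusters. Free RNA can give such low shares, so shares of that size in the lowest clusters were not read as expression.

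Within cluster 4, Rgs6 was carried by few nuclei. Of 4762 wildtype nuclei there, 2.02% had 5 or more Rgs6 UMIs and the median was 0, although 1 nucleus had 18. In thinned nuclei of that cluster, Rgs20 was seen in 47.5 ± 3.17% of those with an Rgs6 UMI and in 58.3 ± 2.11% of those without one. Rgs7 was seen in 8.86 ± 3.79% and 3.83 ± 0.239% of the same nuclei. Nuclei with both Rgs6 and Rgs20 lay below the share that independence gives in 4 of 4 wildtype samples, and nuclei with both Rgs6 and Rgs7 above it in 4 of 4.

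The pair Rgs6 and Rgs7 met in the same nucleus about as often as their separate shares give in cluster 2 (11.5 ± 1.73% of wildtype nuclei had both, against 11.7% if independent). In cluster 3 the pair was seen in 17.6 ± 0.510%, against 18.4% if independent, and lay below it in 4 of 4 samples. Rgs7 was seen there in 22.7 ± 0.802% of nuclei with Rgs6 and in 27.5 ± 1.03% of those without. In cluster 6 the order turned: both were seen in 4.71 ± 1.33%, against 3.57% if independent, and above it in 4 of 4 samples. Over all wildtype nuclei, Rgs20 was seen in 4.80 ± 0.833% of nuclei with Rgs6 and in 14.1 ± 3.80% of those without.

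Across the 28 sums of wildtype samples and clusters, the genes whose pattern was most like that of Rgs6 among 8950 candidates were Npr3 (Pearson r = 0.97), Mb21d2 (0.96), Brinp1 (0.95), Cacna1e (0.95) and Iqschfp (0.94). Cacna1e encodes a voltage-gated calcium channel subunit. For Rgs7 they included A230103L15Rik (r = 0.97), Ablim1 (0.97), Grin2b (0.97) and Lrrfip1 (0.97); Grin2b encodes an NMDA receptor subunit. For Rgs20 they were Mpdz (r = 0.98), Alms1 (0.97), Elp4 (0.97), Lpar1 (0.97) and Dnmbp (0.96); Lpar1 encodes a receptor for lysophosphatidic acid. Over the 28 knockout sums the same pairs had r between 0.74 (Rgs6 with Npr3) and 0.97. Rgs6 and Rgs7 had r = 0.78 with each other, and Rgs20 had r = -0.35 with Rgs6 and r = -0.58 with Rgs7. These are descriptions, since the sums share libraries and the sequencing depth of each cluster.

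Rgs7 was lower in knockout neurons of clusters 1 and 2. In cluster 2 the wildtype samples 1 to 4 had 208, 205, 218 and 223 CPM and the knockout samples 108, 100.4, 105 and 149 CPM. All knockout samples lay below all wildtype ones, with knockout sample 4 the highest of its group. The mean fell from 213.2 ± 8.53 to 115.6 ± 22.3 CPM (log2 fold change -0.88 ± 0.11 SE, adjusted p = 2.02e-04, edgeR). Of all genes tested in this cluster 9.11% passed the threshold, 5.19% of all as lower in knockout, and 14.4% had groups that did not overlap. The share of thinned nuclei with an Rgs7 UMI went from 22.7 ± 1.17% to 13.2 ± 2.12%.

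In cluster 1 Rgs7 stood at 85.4, 77.8, 82.7 and 82.5 CPM in wildtype and at 48.7, 41.4, 51.8 and 64.7 CPM in knockout, again with no overlap (10% of genes there had none). The log2 fold change was -0.68 ± 0.11 (adjusted p = 0.00201, edgeR), in a comparison where 4.84% of genes passed and 2.3% passed as lower. The shares of thinned nuclei were 9.79 ± 0.811% and 6.38 ± 1.37%. Both calls, in clusters 1 and 2, held in each of the 14 alternative analyses.

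These clusters also differed between genotypes in their marker genes. The summed level of the 10 deep-layer markers, all detected, was 9633 to 11863 CPM in wildtype and 14434 to 17893 CPM in knockout in cluster 2, and 3917 to 4678 against 6220 to 8200 CPM in cluster 1. The 6 upper-layer markers summed to 1046 to 1516 CPM in wildtype and 887 to 1218 CPM in knockout in cluster 2, and to 4421 to 5373 against 3646 to 4086 CPM in cluster 1. Their sum was higher in cluster 5, at 8164 to 9532 CPM in wildtype and 6203 to 8116 CPM in knockout. Some lists of other cell types were lower in knockout without overlap: the 8 interneuron markers detected of 9 summed to 63.9 to 76.1 against 30.5 to 62.6 CPM in cluster 2 and to 63.3 to 103.6 against 30.9 to 56.3 CPM in cluster 1. The 5 striatal neuron markers detected of 6 summed to 23.0 to 47.5 against 14.6 to 21.4 CPM in cluster 2 and to 38.9 to 61.6 against 17.1 to 27.6 CPM in cluster 1. The 5 markers of oligodendrocyte precursors summed to 3.20 to 7.04 against 1.31 to 3.10 CPM and to 3.84 to 4.83 against 0.773 to 2.06 CPM in the same clusters. The remaining lists, such as those of microglia and apical progenitors, overlapped between genotypes in both clusters. In cluster 2 the sums of Cajal-Retzius cells (26.0 to 34.4 against 33.1 to 55.4 CPM) and intermediate progenitors (284 to 348 against 334 to 436 CPM) leaned higher in knockout. Deep-layer sums were also higher in knockout without overlap in clusters where Rgs7 did not pass: 4881 to 5430 against 5895 to 6675 CPM in cluster 4, 5588 to 6016 against 7306 to 8147 in cluster 5, 2776 to 2874 against 3098 to 3772 in cluster 6 and 4862 to 4943 against 5482 to 6293 in cluster 7. In cluster 3, which has as much Rgs7 as cluster 2 in wildtype, they overlapped, at 17075 to 18413 and 17343 to 19685 CPM, while its striatal and oligodendrocyte precursor sums were lower without overlap. The part of these differences in the change of Rgs7 was not tested.

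In cluster 3 Rgs7 had 230.0, 209.5, 232 and 211 CPM in wildtype against 193, 199.6, 185 and 188 CPM in knockout. The groups did not overlap, as for 8.94% of genes there, but the change did not pass (log2 fold change -0.20 ± 0.06, adjusted p = 0.0970; 3.36% of genes passed). In cluster 6, its top cluster, the means were 264.3 ± 32.1 and 270.6 ± 35.6 CPM (0.04, 95% interval -0.20 to 0.27, adjusted p = 0.960). Cluster 7 had a log2 fold change of -0.25 (adjusted p = 0.623) and cluster 5 one of -0.19 (0.883), where 1.03% and 1.77% of genes passed. In cluster 4 the level was 41.8 ± 3.62 CPM in wildtype and 25.2 ± 10.2 CPM in knockout without overlap, as for 10.2% of genes (-0.74 ± 0.23, adjusted p = 0.111, and 0.0132 without knockout sample 1).

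The genotype effect on Rgs7 in cluster 2 was compared with that in the other clusters by taking, in each sample, the log2 level in cluster 2 minus the mean over the other 6. This difference was 0.94, 1.20, 1.09 and 1.21 in the wildtype samples and 0.22, 0.64, 0.67 and 0.74 in the knockout samples. It was lower in knockout by -0.54 ± 0.12 (limma, adjusted p = 0.0476), where 3.37% of genes passed. The call was lost in 10 of 12 alternatives, among them leaving out any 1 of the 8 samples (adjusted p 0.0547 to 0.133). For cluster 6 the same measure was higher in knockout by 0.54 but did not pass (adjusted p = 0.401; 0.0205% of genes passed). The other cluster differences of the 3 genes did not pass either.

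Over all nuclei Rgs7 fell from 149.8 ± 15.7 to 101.2 ± 16.3 CPM (log2 fold change -0.57 ± 0.11, adjusted p = 0.0197, edgeR). Wildtype samples had 148, 134.0, 171 and 146 CPM and knockout samples 103, 83.8, 95.3 and 123 CPM, with no overlap. Of all genes 5.26% passed in this comparison, 3.58% as lower, and 11.7% did not overlap. A sum over all nuclei moves both with the level per nucleus and with the share of nuclei from each cluster, and these cannot be told apart in it. Cluster 6, where Rgs7 was highest, held 10.5 ± 1.54% of the nuclei of a wildtype sample (9.37 to 12.7%) and 5.85 ± 1.61% of those of a knockout sample (4.31 to 8.11%), without overlap. The call was lost without wildtype sample 4 (adjusted p = 0.0530), without knockout sample 2 (0.0570) and without knockout sample 3 (0.0754).

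Rgs20 was lower in the knockout in the cluster where it was concentrated. In cluster 4 it had 757, 652, 668 and 706 CPM in wildtype and 498, 554, 557 and 508 CPM in knockout. The lowest wildtype sample lay above the highest knockout sample, in a cluster where the groups did not overlap for 10.2% of genes. The mean fell from 695.9 ± 46.6 to 529.5 ± 30.7 CPM (log2 fold change -0.39 ± 0.07, adjusted p = 0.00690, edgeR), where 4.29% of genes passed and 3.12% passed as lower. The share of thinned nuclei with an Rgs20 UMI was 57.4 ± 1.65% in wildtype and 47.5 ± 2.34% in knockout. The call held in each of the 14 alternatives, with adjusted p from 6.84e-05 to 0.0289.

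Atp6v1h, which overlaps Rgs20, was lower in knockout too. It fell over all nuclei (249.2 ± 17.9 to 190.8 ± 6.33 CPM, log2 fold change -0.38, adjusted p = 0.00684) and in clusters 1, 2, 3 and 5, by -0.34, -0.39, -0.46 and -0.32 with adjusted p of 0.00724, 0.00450, 0.00124 and 0.0331 (edgeR). In cluster 4 it had 228.9 ± 22.6 and 176.9 ± 26.9 CPM (-0.37, adjusted p = 0.0864). The part of shared reads in the change of Rgs20 was not tested; in cluster 4 the Rgs20 means lay 3.04-fold and 2.99-fold above those of Atp6v1h. Marker sums of cluster 4 differed as well: the 11 apical progenitor markers detected of 12 summed to 2479 to 3023 CPM in wildtype and 2121 to 2279 CPM in knockout, while the deep-layer sum, given with Rgs7, was higher in knockout. The 8 interneuron markers detected of 9 summed to 186 to 222 against 63.1 to 176 CPM, the 7 of endothelial cells and pericytes to 35.5 to 38.0 against 14.9 to 21.5 CPM, the 5 of microglia detected of 6 to 10.1 to 12.4 against 5.48 to 6.82 CPM, and the 5 of oligodendrocyte precursors to 12.7 to 13.9 against 1.98 to 4.26 CPM. The remaining lists overlapped between genotypes in this cluster. No marker of the lists that differed was at 0 in every sample, and the part of those lists in the change of Rgs20 was not tested.

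Cluster 4 holds cycling nuclei, and the authors' cell cycle angle places each nucleus on that cycle. In the S range Rgs20 had 762 ± 60.9 CPM in wildtype and 575 ± 45.5 in knockout, and in the G2/M range 644 ± 28.9 and 486 ± 6.94. In the G1/G0 range it had 614 ± 135 and 345 ± 51.8 CPM, and in the range between G1/G0 and S 598 ± 38.0 and 354 ± 50.1. The samples of the genotypes overlapped in none of these 4 ranges, as was so for 7.86%, 7.98%, 5.98% and 4.09% of genes in them. The ranges share libraries with each other and with the whole cluster, and they were not tested.

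**Figure D2:**
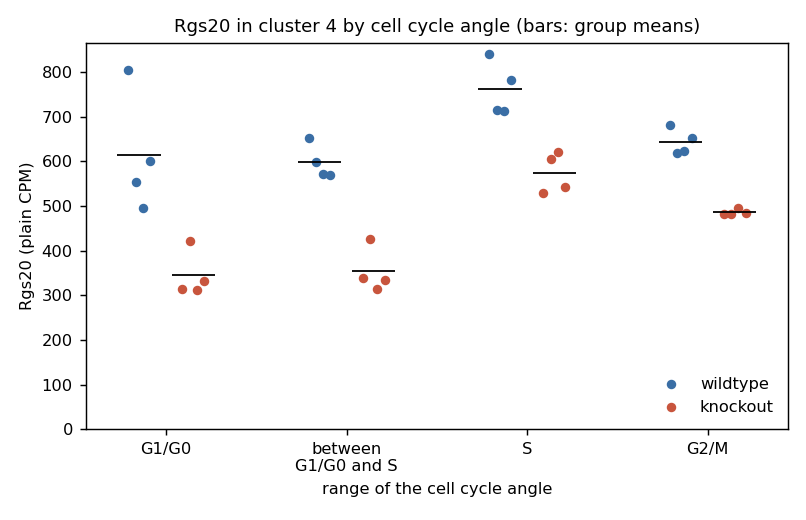
Rgs20 in the apical progenitor-like cluster 4 in plain CPM, by range of the cell cycle angle, with 1 point per sample (wildtype blue, knockout red) and bars at the group means. Every wildtype point lies above every knockout point within a range, and the wildtype means run from 598 CPM between G1/G0 and S to 762 CPM in S.

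In the intermediate progenitor-like cluster 5, Rgs20 had 106, 82.8, 82.9 and 86.8 CPM in wildtype and 80.3, 62.1, 58.5 and 74.1 CPM in knockout. These groups did not overlap, as for 6.19% of genes, but the change did not pass (-0.40 ± 0.12, adjusted p = 0.148; 0.0450 with the replicate number as a block). In cluster 3 it had 35.1 ± 5.81 and 24.9 ± 5.01 CPM (-0.52 ± 0.14, adjusted p = 0.0653, and 0.0215 without knockout sample 1). In clusters 1, 2, 6 and 7 the adjusted p lay between 0.285 and 0.982. Over all nuclei the samples had 179, 117, 96.6 and 122 CPM in wildtype and 159, 131, 108 and 92.7 CPM in knockout, with overlap (-0.07, 95% interval -0.51 to 0.37, adjusted p = 0.891). As for Rgs7, level and cluster shares cannot be told apart in this sum. Cluster 4 held 14.1 ± 4.42% of the nuclei of a wildtype sample (9.69 to 20.2%) and 18.4 ± 5.50% of those of a knockout sample (13.1 to 25.5%).

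Rgs6 was higher in knockout in cluster 2, in the opposite direction to Rgs7. Wildtype samples had 886, 878, 1076 and 949.9 CPM and knockout samples 1098, 1477, 1134 and 1149 CPM. The lowest knockout sample was just above the highest wildtype one (14.4% of genes there had no overlap), and knockout sample 2 stood apart from its group. The log2 fold change was 0.36 ± 0.10 (adjusted p = 0.0373, edgeR), where 3.92% of genes passed as higher. The share of thinned nuclei with an Rgs6 UMI was 51.4 ± 5.05% in wildtype and 60.2 ± 2.92% in knockout, and the groups overlapped. With at least 2 UMIs it was 30.5 ± 2.90% and 39.7 ± 3.76%, without overlap, which was not counted for other genes. The call was lost on leaving out wildtype sample 1 (adjusted p = 0.107), 2 (0.105) or 4 (0.0858), or knockout sample 2 (0.0917) or 3 (0.0598). The deep-layer marker sum of this cluster, given with Rgs7, was higher in knockout as well, and its part was not tested.

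In cluster 3, where Rgs6 was highest, wildtype samples had 1702 to 1810 CPM and knockout samples 1606 to 2331 CPM (0.09, 95% interval -0.11 to 0.29, adjusted p = 0.730). Clusters 6 and 7 had -0.39 (adjusted p = 0.670) and -0.15 (0.777); in cluster 6 0.779% of genes passed. In cluster 4 the samples were uneven: wildtype had 74.2, 106, 101 and 158 CPM and knockout 119.8, 41.1, 35.2 and 138 CPM (-0.41 ± 0.39, adjusted p = 0.675). This value became -1.23 with nuclei of a doublet score of at most 0.25 (adjusted p = 0.148) and ran from -0.73 to -0.16 with a sample left out. The 3 samples with 0 UMIs of Xist, the RNA of the inactive X chromosome in females (wildtype 4, knockout 1 and knockout 4; the other 5 had 77 to 128), were the 3 highest there. With Xist as a covariate the log2 fold change was -0.87 ± 0.18 (adjusted p = 0.0158). In cluster 5 the values were 72.8, 20.7, 68.2 and 53.0 CPM in wildtype and 153, 59.5, 42.9 and 127 CPM in knockout (0.80 ± 0.38, adjusted p = 0.517).

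**Figure D3:**
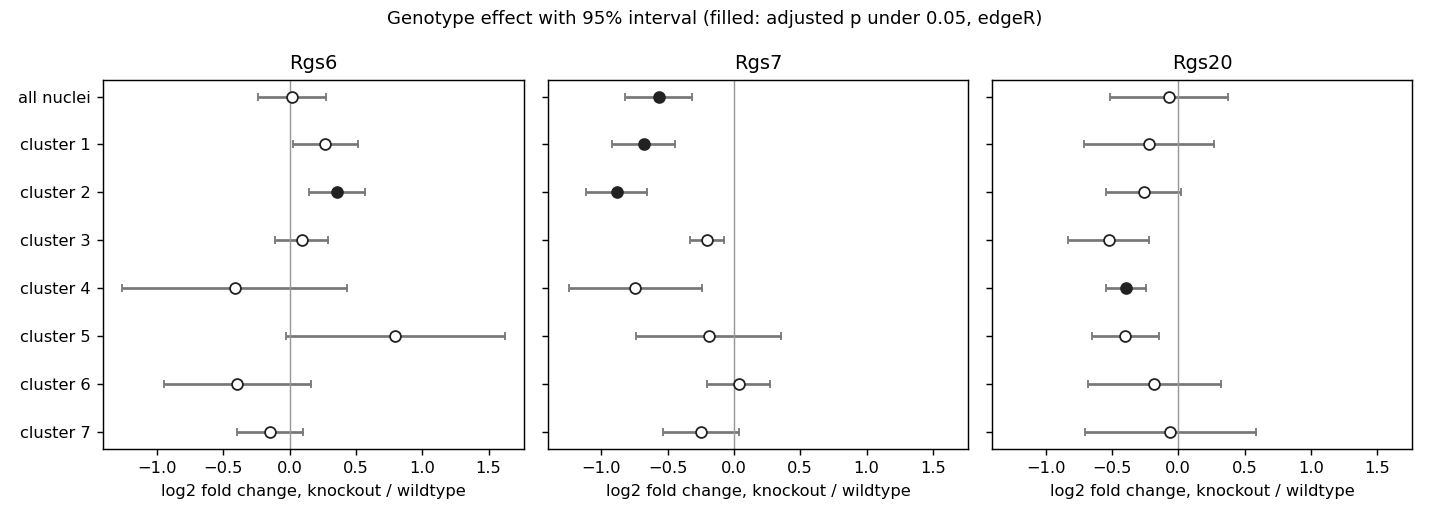
Log2 fold change, knockout over wildtype, of Rgs6, Rgs7 and Rgs20 over all nuclei and in each cluster, with the 95% interval of edgeR's fit; filled points passed an adjusted p of 0.05. Filled points are Rgs6 in cluster 2 (0.36), Rgs7 over all nuclei and in clusters 1 and 2 (-0.57, -0.68 and -0.88), and Rgs20 in cluster 4 (-0.39).

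Of the nearest tested genes, 3 before and 3 after a member on its chromosome, those around Rgs6 passed in 6 of 48 comparisons. Over all genes, 0.779% (cluster 6) to 9.11% (cluster 2) passed in a comparison, and the comparisons share libraries. Dpf3, a subunit of a chromatin-remodelling complex whose gene starts 625.5 kb after the start of Rgs6, rose in cluster 2 from 139.1 ± 44.3 to 380.2 ± 75.1 CPM (log2 fold change 1.46, adjusted p = 4.38e-04, edgeR). It rose less in cluster 1 (0.66, adjusted p = 0.0199) and over all nuclei (0.52, 0.0185). On the other side of Rgs6, Pcnx rose in cluster 2 by 0.47 (adjusted p = 5.93e-04) and Sipa1l1 in clusters 2 (0.29, 0.0212) and 1 (0.24, 0.0482). Map3k9, Dcaf4 and Zfyve1 passed in none. Around Rgs20, 5 of 40 passed, all of them Atp6v1h.

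Of 20 RGS genes listed, 16 were in the table. Besides the 3 genes, Rgs10 fell over all nuclei (5.12 ± 0.790 to 3.16 ± 0.479 CPM, log2 fold change -0.69, adjusted p = 0.0291) and Rgs3 fell in cluster 1 (17.1 ± 3.79 to 9.29 ± 2.51 CPM, -0.90, adjusted p = 0.0153, edgeR). The call of Rgs10 was lost with a doublet score of at most 0.25 and without wildtype sample 1, 3 or 4 or knockout sample 2 or 3. Of the other 13, 1 passed as lower over all nuclei, beside 3.58% of all genes. In cluster 1, 1 of the 9 tested passed as lower, beside 2.3% of all genes. None of the 13 passed as higher in any comparison, where 1.67% of all genes did so over all nuclei and 3.92% in cluster 2. Their median log2 fold change over all nuclei was -0.17, beside 0.00 for all genes. In cluster 3 the median of the 11 tested there was 0.12, also beside 0.00. The other members of the subfamilies of the 3 genes did not pass: Rgs17, another RZ member, had 54.1 ± 1.39 and 48.7 ± 3.12 CPM over all nuclei (-0.15, adjusted p = 0.174), and Rgs9 had 11.6 ± 0.560 and 10.3 ± 1.39 CPM (-0.17, 0.395).

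Among the partners of the R7 proteins, Gpr158, the receptor that binds Rgs7, fell over all nuclei (51.9 ± 7.47 to 31.6 ± 4.85 CPM, -0.72, adjusted p = 0.0105), in cluster 4 (-0.90, 0.0238) and in cluster 5 (-0.73, 0.00886). It was highest in cluster 6, as Rgs7 was, at 214 CPM in wildtype and 159 in knockout (-0.43, adjusted p = 0.357), and the share of nuclei in cluster 6 was lower in knockout, as given with Rgs7. Rgs7bp did not pass in any comparison (86.9 ± 6.16 and 83.2 ± 9.02 CPM over all nuclei). Gnb5, without which R7 proteins are unstable, was counted at only 3.08 ± 0.641 and 2.90 ± 0.432 CPM.

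Of the Gα subunits on which RGS proteins of these subfamilies act, Gnai1 fell in cluster 2 from 96.6 ± 13.2 to 50.2 ± 5.81 CPM (-0.95, adjusted p = 1.70e-04) and over all nuclei (-0.38, 0.00456). Gnai2, Gnai3 and Gnao1 did not pass over all nuclei. Gnb4, a β subunit, fell over all nuclei (-0.48, adjusted p = 0.0197) and in clusters 1 (-0.43, 0.0217), 2 (-0.50, 0.0396) and 3 (-0.45, 0.0259), and the γ subunit Gng12 fell in cluster 4 (-0.49, 0.00337).

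In cluster 2, where Rgs7 fell and Rgs6 rose, 7 of 13 tested Gi/o-coupled receptors passed, 6 lower and 1 higher, where 5.19% of all genes passed as lower and 3.92% as higher. The metabotropic glutamate receptors Grm3 (46.1 ± 12.9 to 12.7 ± 4.68 CPM, -1.87, adjusted p = 2.41e-04), Grm8 (-1.30, 0.00274) and Grm7 (-1.04, 0.0247) fell, as did the neuropeptide Y receptor Npy1r (-1.59, 0.00664), the serotonin receptor Htr1f (-0.49, 0.0311) and the GABA-B subunit Gabbr2 (-0.35, 0.0396). The cannabinoid receptor Cnr1 rose (347.5 ± 23.1 to 456.1 ± 58.0 CPM, 0.39, adjusted p = 0.0115). The median of the 13 was -0.35, beside 0.00 for all genes. All lists were chosen with earlier results of these data known, so such counts and medians are descriptions and no test of a list.

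In cluster 3, 4 of 15 receptors passed, in a fit where 1.88% of genes passed as lower and 1.48% as higher: Grm3 (-0.93, adjusted p = 0.00192), Grm8 (-0.91, 0.00701) and Htr1f (-1.16, 9.14e-05) fell, and Cnr1 rose (0.57, 0.0200). Over all nuclei, where 3.58% of all genes passed as lower, 3 of 22 fell, namely Grm3 (-1.07, 0.0223), Htr1f (-0.98, 0.00489) and Npy1r (-1.63, 0.0151). Grm3 (-1.10, 0.0338) and S1pr1 (-0.56, 0.0205) fell in cluster 4, and Chrm2 (-1.80, 0.00211) in cluster 1. Of the effectors, adenylyl cyclase Adcy2 fell over all nuclei (-0.66, 0.0491) and in clusters 2 (-0.71, 0.0347) and 3 (-1.02, 0.0111), Adcy1 in cluster 3 (-0.39, 0.0179), and the calcium channel subunit Cacna1b in cluster 2 (-0.27, 0.0102). These p-values are adjusted over all genes of each edgeR fit. Over the 98 listed genes, the 3 included, 0 of 71 tested passed as higher and 9 as lower over all nuclei, where 1.67% of all genes passed as higher and 3.58% as lower. In cluster 2 the counts were 2 and 11 of 57, beside 3.92% and 5.19% of all genes. Without the RGS genes, 7 listed genes passed over all nuclei. This became 16 once replicate numbers were blocked, while the calls among all genes rose from 732 to 1344 of 13927.

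**Figure D4:**
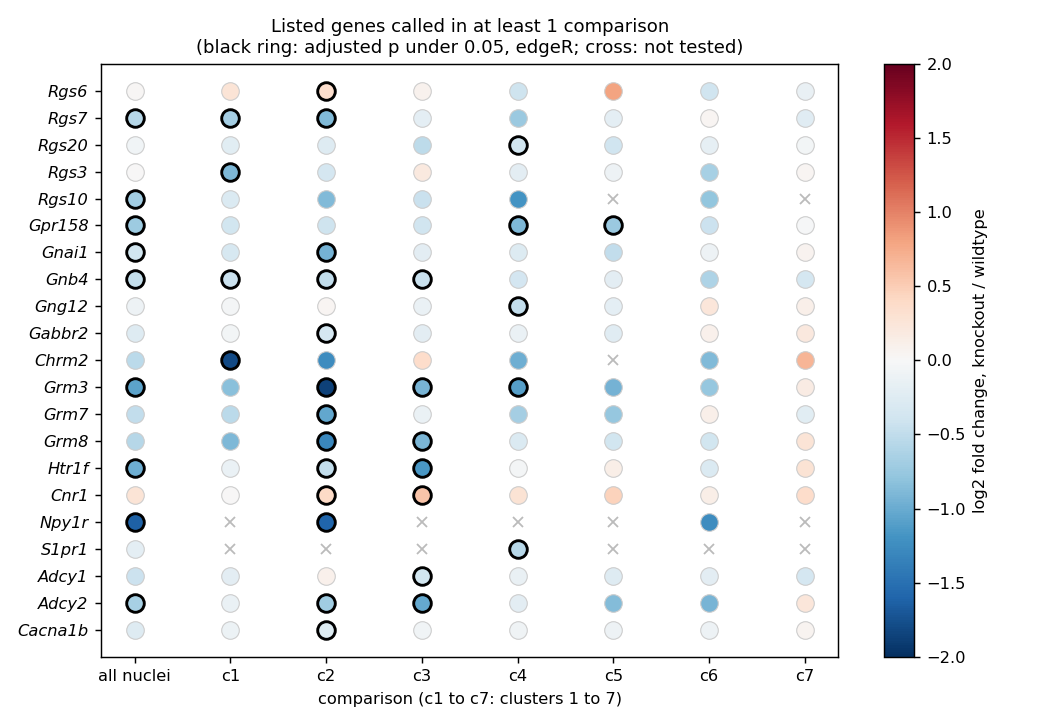
Log2 fold change, knockout over wildtype, for the listed RGS, G protein, receptor and effector genes called in at least 1 comparison; columns are all nuclei and clusters 1 to 7, black rings mark an adjusted p under 0.05 and crosses genes not tested. Rings are most frequent in cluster 2 (13 genes), and Rgs6 and Cnr1 are the genes with a ring that are higher in knockout there.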

How the data were processed

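The analysis started from the authors' deposited matrices, whole-number UMI counts for each gene in each nucleus, with their cluster number, doublet score (a score of at most 0.5 in every nucleus) and cell cycle angle (another number of theirs) per nucleus. The submitters' processing notes name kallisto, bustools and mm10; versions, strand use, the counting of introns and filters are not given in the sources used here. UMIs were summed per sample, and per sample and cluster, with cells not treated as replicates. Sums were compared between 4 wildtype and 4 knockout samples with edgeR 4.0.16 (R 4.3.3), using TMM scaling, its default filter on low counts and no covariate. Differences of the genotype effect between clusters were tested with limma 3.58.1 on log2 CPM with a prior count of 2. Alternatives used DESeq2 1.42.0, other scaling, no filter, a replicate block, Xist as a covariate, a doublet score of at most 0.25, and each sample left out. All libraries carry 1 library date, so no batch could be compared.

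Marker sums, alike genes and angle ranges use plain CPM without TMM. Doublets were not called anew. Angle ranges start at 0.5π (S), 1π (G2/M) and 1.75π (G1/G0, up to 0.25π). A cluster was named when at least 3 markers had at least 10 CPM and 1.5 times the median over clusters. A few genes that these rules would name, 1 marker among them, are not reported here; Pantr2 counts are not analysed here. Same-numbered samples deviated together over all nuclei (correlations across genes 0.40, 0.19, 0.19 and 0.18, all over 0.1). Differently numbered pairs ran from -0.36 to 0.29, with wildtype 3 and knockout 4 the highest, and 3 of those 12 pairs were over 0.1 too. The numbers come from the sample titles. A block on them was used only as an alternative, and the main tests did not pair the samples. The block changed 1 call of the 3 genes, Rgs20 in cluster 5. No 2 replicates agreed within sampling noise (chi-square per degree of freedom 12.3 to 33.4). Deposited positions differ from GENCODE M21 and were not mixed with it; transcripts were compared with blastn 2.17.0, at 95% identity over at least 100 bases. On simulated counts the test recovered, at a log2 fold change of 1, 93.5% of the altered genes in cluster 2 and 91% in cluster 4. Smaller changes, such as those of Rgs6 in cluster 2 or Rgs20 in cluster 4, were not simulated. Recovery at their size is therefore not known. The members and gene lists were chosen with earlier results of these data known. Named genes are the 3 genes, every listed gene that passed, the 5 most alike genes with at least 10 CPM, and the 3 nearest tested genes on either side.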

Additional observations from a re-analysis of the deposited data

Results flagged for a closer look

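Knockout sample 2 stood apart from its group for Rgs6 in cluster 2, at 1477 CPM with the next sample at 1149, a gap of 0.866 of the range of the 4. Knockout sample 4 stood apart for Rgs7 in the same cluster, at 149 CPM with the next at 108 (0.833 of the range), and it was the sample nearest to wildtype. Wildtype sample 1 stood apart for Rgs20 in cluster 5, at 106 CPM with the next at 86.8 (0.832 of the range). These are 3 of 48 groups of 4 examined; the gap was above Dixon's critical value for 4 samples, and chance marks about 1 in 20.

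The change of Rgs7 differed between cluster 2 and the other clusters, by -0.54 on the log2 scale (limma, adjusted p = 0.0476, 0.00886 to 0.133 over its alternatives). The call was lost in 10 of 12 alternatives, among them leaving out any 1 of the 8 samples.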

How the results depend on the processing

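The calls of Rgs7 in clusters 1 and 2 and of Rgs20 in cluster 4 kept their direction and their side of the threshold under all 14 alternatives; of the 3 genes' tests against genotype, 302 results with an alternative were unchanged in this sense, 17 turned direction, 9 passed where they had not and 8 no longer passed. No change of direction touched a call, and the cause of none of these shifts was tested. Log2 fold changes that passed only under an alternative were Rgs20 in cluster 3 with DESeq2 (-0.51), with Xist as a covariate (-0.57) and without knockout sample 1 (-0.65), Rgs7 in cluster 4 with DESeq2 (-0.74), with Xist (-0.90), with a doublet score of at most 0.25 (-0.82) and without knockout sample 1 (-1.02, adjusted p = 0.0132), Rgs6 in cluster 4 with Xist (-0.87), and Rgs20 in cluster 5 with the replicate block (-0.39), which changed no other call of the 3 genes. The lower doublet score turned Rgs7 in clusters 5 (0.031) and 6 (-0.049), and Rgs6 in cluster 7 against the other clusters (0.026). Rgs7 in cluster 2 against the others no longer passed with that score (-0.59) or with a prior count of 0.5 (-0.54).

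With each sample left out in turn, log2 fold changes over all nuclei ran from -0.078 to 0.11 for Rgs6, from -0.67 to -0.48 for Rgs7 and from -0.22 to 0.13 for Rgs20. Those of Rgs6 ran from 0.25 to 0.43 in cluster 2, from -0.025 to 0.17 in cluster 3, from -0.73 to -0.16 in cluster 4, from 0.45 to 1.04 in cluster 5, from -0.67 to -0.17 in cluster 6 and from -0.30 to -0.075 in cluster 7. Those of Rgs7 ran from -1.02 to -0.55 in cluster 4, from -0.48 to 0.0012 in cluster 5, from -0.060 to 0.10 in cluster 6 and from -0.36 to -0.15 in cluster 7. Those of Rgs20 ran from -0.65 to -0.40 in cluster 3, from -0.38 to 0.0033 in cluster 6 and from -0.40 to 0.12 in cluster 7. Against the other clusters, Rgs7 in cluster 2 ran from -0.60 to -0.43, Rgs6 in cluster 3 from -0.18 to 0.22, and Rgs20 from -0.053 to 0.34 in cluster 1, from -0.10 to 0.22 in cluster 2, from -0.20 to 0.037 in cluster 4 and from -0.21 to 0.27 in cluster 6.

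RGS genes that passed over all nuclei numbered 2, with 1 at the lower doublet score and 0 to 2 with a sample left out (0 without wildtype sample 4, knockout sample 2 or knockout sample 3). Summed over the 7 clusters they numbered 5, with 8 under the Xist covariate and 3 to 8 with a sample left out. The other listed genes that passed over all nuclei numbered 7, with 16 under the replicate block and 3 to 10 with a sample left out. Of all genes, 732 of 13927 passed over all nuclei, and 1344 under the block. That number was 571 at the lower doublet score and 263 to 994 with a sample left out. The other listed genes that passed, summed over the 7 clusters, numbered 25, and 14 to 26 with a sample left out. Rgs20 was counted with 26 to 70 UMIs per wildtype sample in cluster 1 and 26 to 40 in cluster 7, so small differences were not detectable there.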
